A study of Mus musculus with 15 samples.

Results

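The genes described here make, use and recycle glutathione, or are enzymes and regulators of the antioxidant program run by the transcription factor NRF2 (gene Nfe2l2). They were taken as a list of 48 genes of glutathione synthesis, glutathione transferases, peroxidases, NRF2 targets and the pentose phosphate pathway. Of these, 45 had a probe set that names 1 gene symbol alone, out of 18193 such genes measured. The other 3 were Prdx1, whose probe sets also name a second gene, and Prdx6 and G6pdx, for which the annotation used here lists no probe set. Each gene is represented by its probe set with the highest mean log2(intensity + 16) over the arrays, and no gene was left out for being dim.

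RNA of mouse lung of mixed background, with no treatment, was measured on Affymetrix arrays, with 3 arrays in each of 4 groups. At 12 months, lungs labelled wildtype were compared with lung tumours, each array holding part of a single tumour, of mice whose genotype includes Smad4d/d, a deletion of the shared SMAD partner of TGF-beta and BMP signalling. At 7 months, lungs labelled wildtype were compared with whole lungs of the same mutant genotype, which the series design calls an early stage, before tumour initiation. The sources used here name neither the driver of the deletion nor the cells that carry it. Every effect below belongs to the genotype as a whole, not to Smad4 alone. The labels do not say for every array that it is a separate animal, so the p-values measure the spread between these samples, which may be technical in part.

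Glutathione is a tripeptide that cells build in steps run by glutamate-cysteine ligase and glutathione synthetase. Peroxidases spend it on peroxides, transferases attach it to reactive compounds, and glutathione reductase restores it with NADPH, much of which comes from the pentose phosphate pathway. NRF2 is held in check by KEAP1, which marks it for breakdown; when NRF2 escapes, it binds antioxidant response elements and raises many of these genes, mainly through its protein level and not through its own RNA. In lung, airway epithelium and above all club cells are known for high levels of transferases and other detoxifying enzymes.

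The antioxidant response element has the core TGACNNNGC. This core was searched on both strands of the RefSeq promoter windows of GRCm38.p6, each running from 250 bases before to 50 bases after a gene's start. At least 1 match lay in a window of 11 of the 40 measured members that had one (27.5%), against 3781 of 27025 genes in all (14%). Among members called higher at either age 6 of 16 had a match, and among the rest 5 of 24. A match is a description of letters and not of binding, and a window without one says nothing of elements further away. Of the members called higher at either age, Gclm, Gstm5, Gstm7 and Txnrd1 have the whole match before the start of its window's transcript. The 3 stretches below are shown for that reason; Gstm7's is not, because it lies just after another annotated start of that gene. They read 5′ to 3′ on the gene's strand and carry the core, or its reverse complement, in capitals. Those of Gclm and Gstm5 lie upstream of the whole gene. That of Txnrd1 lies within the gene's span, after an earlier annotated start, and whether it is exonic or intronic there was not determined.

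Gclm, chr3:122245383-122245471, plus strand: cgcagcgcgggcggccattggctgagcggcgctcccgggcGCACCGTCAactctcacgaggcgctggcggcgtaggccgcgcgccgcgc
Txnrd1, chr10:82859074-82859162, plus strand: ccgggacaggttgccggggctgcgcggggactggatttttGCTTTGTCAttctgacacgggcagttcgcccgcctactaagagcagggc
Gstm5, chr3:107895772-107895853, plus strand: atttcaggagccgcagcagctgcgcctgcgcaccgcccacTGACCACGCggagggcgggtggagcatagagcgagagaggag

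Several facts of the arrays bear on what follows. Median intensity lay between 90.9 and 99.5, and arrays of 1 group correlated at 0.982 to 0.994 over genes. The 18S ribosomal RNA controls were dimmer in tumours, at 1700 ± 503.5 (SD, n = 3) against 6381 ± 777.5, and alike at 7 months, at 7199 ± 792 in mutant against 6953 ± 83.5 in wild type samples; their part in the results was not tested. By Xist and Y-linked genes, the 3 tumours and 1 wild type array at 12 months were male and the other 2 wild type arrays female, so sex runs with the tumour comparison. At 7 months, 5 of the 6 arrays showed both kinds of gene, with Xist at 4516 to 4959 and the Y-linked Eif2s3y at 727 to 923. Such arrays may hold RNA of more than 1 animal, which the labels do not state and which was not tested. Wild type array 3 showed only the Y-linked genes (Xist 48.1, Eif2s3y 1504). The sex-linked signal thus differs in part between the groups at 7 months too. The 3 Smad4 probe sets were not lower in mutant samples than in wild type (on the brightest, 3302 ± 364 in tumours against 2819 ± 137, and 3292 ± 109 against 3220 ± 73.7 at 7 months); whether they fall inside the deletion is unknown here, so they do not check the genotype.

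In tumours, 16 of the 45 measured members were called higher and 0 lower at an adjusted p under 0.05; 9.23% of all genes were called higher and 6.02% lower. In mutant lung at 7 months, 14 members were called higher and 0 lower, against 6.42% and 1.39% of all genes. The count of 0 lower is from limma; no member was lower at an unadjusted p under 0.05 in tumours, and Gpx3 alone was at 7 months (values below). All 3 values lay above all 3 wild type values for 19 members in tumours (20.5% of all genes) and 21 in mutant lung (15.2%), and below them for Gstm4 in tumours (17% of all genes) and Gpx3 at 7 months (10.9%). The median member was 0.19 higher on the log2 scale in tumours, where the median of all genes was at 0.01, and 0.20 higher in mutant lung, where it was also at 0.01. The members called higher at both ages, 11 of the 16 and of the 14, were Gclc, Gclm, Gss, Gpx2, Gpx8, Gsta4, Gsto1, Gsto2, Nqo1, Txnrd1 and Cbr3. With each array centred on its median, 1327 genes of the whole table were called higher and 1789 lower in tumours, in place of 1679 and 1095, and 916 and 1025 at 7 months, in place of 1168 and 253; members called higher were then 13 and 11, and Gpx3 was called lower at 7 months (-0.28 on the log2 scale).

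Gclm, Gpx2, Gsta4, Gstm7, Gsto1 and Gsto2 stayed called in tumours without any single one of the 6 arrays. Without wild type array 1 or 3 these 6 alone were called, and Cbr3, Gclc, Gpx8, Gsr, Gss, Gstm5, Gstp1, Nqo1, Srxn1 and Txnrd1 were not. Of all 18193 genes, 715 and 622 were then called higher, in place of 1679, and 262 and 220 lower, in place of 1095. Without tumour 1 the count of members was 7, with Gpx8 kept as well (790 of all genes called higher). It was 9 without wild type array 2 (918 of all genes), which left Cbr3, Gclc and Gss called beside the 6. Without tumour 3 it was also 9 (852 of all genes), which left Gclc, Gpx8 and Nqo1. Without tumour 2 it was 16, with Nqo1 lost and Mgst2 gained, and Gstk1 and Gstt1 were called lower. Of all genes, 1900 were then called higher and 1426 lower. Against the 1 male wild type array, a comparison added after the sex-linked genes were seen, in which that lone array is assumed to vary like the other groups, 9 members were called higher, Mgst2 among them, and Gpx3 lower; Cbr3, Gsr, Gss, Gstm5, Gsto2, Nqo1, Srxn1 and Txnrd1 were not called.

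At 7 months Cbr3, Gclc, Gpx2, Gss, Gsta4, Gsto1, Gstt3, Mgst2, Nqo1 and Pgd stayed called without any single array, and the count was 10 to 13. Of all genes, 792 to 1037 were then called higher, in place of 1168, and 116 to 180 lower, in place of 253. Txnrd1 was lost without any of the 6 arrays. Gclm was lost without any array but mutant array 3, Gpx8 without wild type array 2 or 3 or mutant array 1 or 2, and Gsto2 without wild type array 1 or any mutant array. With the 6 wild type and mutant arrays fitted by themselves the count was 8, without Cbr3, Gclm, Gpx8, Gsto2, Pgd and Txnrd1. Of all genes, 730 were then called higher and 37 lower.

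**Figure D1:**
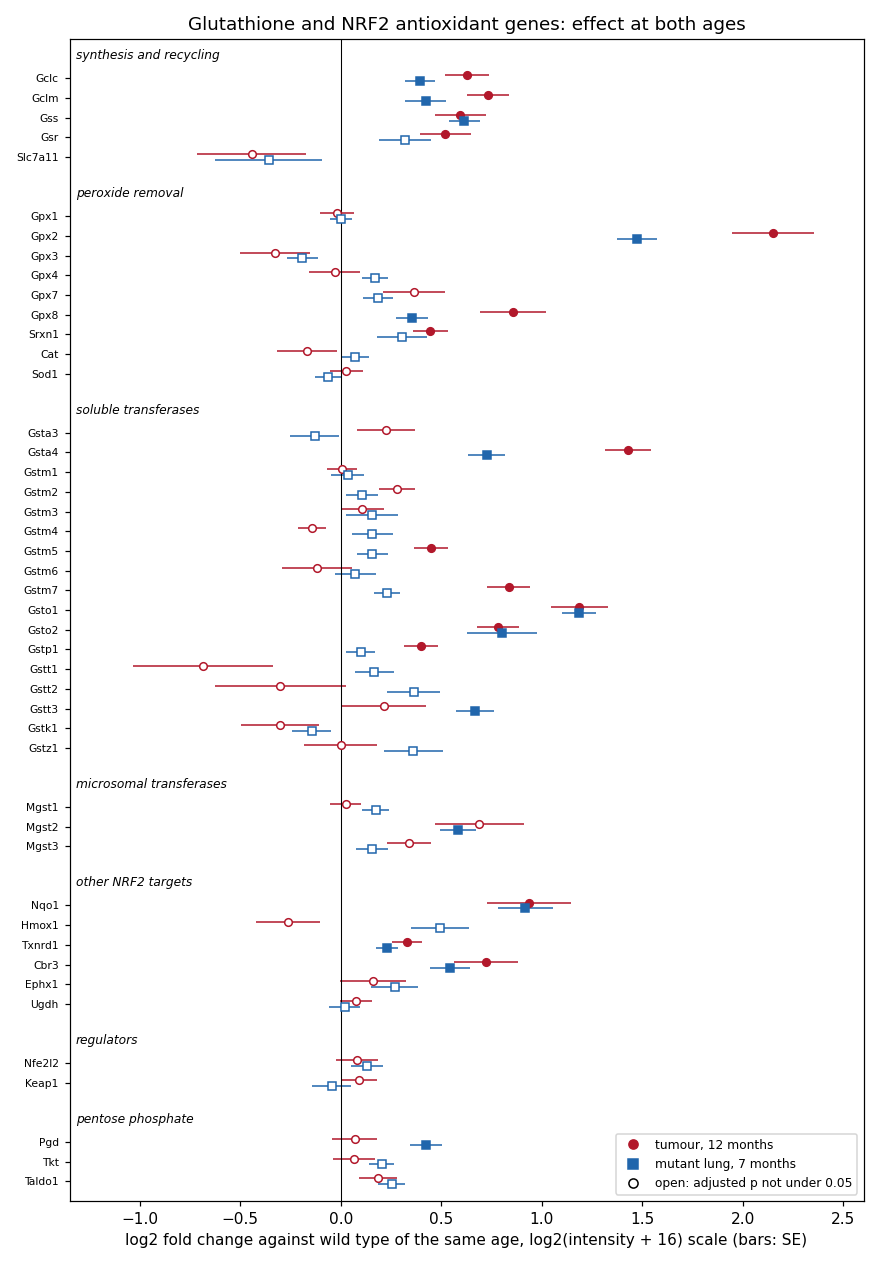
Log2 fold change of each of the 45 measured members against wild type of its age, on the log2(intensity + 16) scale, with bars of 1 SE, for tumours at 12 months (red circles) and mutant lung at 7 months (blue squares); filled symbols have an adjusted p under 0.05. Filled symbols lie only to the right of 0, led by Gpx2 at 2.15 and 1.47, while Gstt1 in tumours lies furthest to the left at -0.69 and is open.

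The enzymes that build and restore glutathione were higher in tumours in 4 of 5 cases. Gclc, the catalytic subunit of glutamate-cysteine ligase and the rate-limiting step, read 1601, 1719 and 1382 in the wild type lungs and 2475, 2563 and 2239 in the tumours at 12 months (log2 fold change 0.63 ± 0.11 SE, 1.55-fold, adjusted p = 0.0180). In the younger mice Gclc read 1796, 1767 and 1914 in wild type and 2367, 2405 and 2441 in mutant lung (1.31-fold, adjusted p = 0.0143). The groups did not overlap at either age, and the 3 mutant lungs lay within the range of the tumours. The second Gclc probe set was called at both ages, at 1.49-fold and 1.28-fold (adjusted p = 0.0287 and 0.0489 over all probe sets of 1 symbol).

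Gclm, the subunit that modulates the ligase and whose upstream stretch is printed above, read 786, 815 and 693 in wild type lung and 1324, 1156 and 1362 in tumours (0.73 ± 0.11, 1.66-fold, adjusted p = 0.0112). At 7 months its values were 819.7, 856 and 761 against 1118, 1236 and 942 (1.34-fold, adjusted p = 0.0411). Every mutant sample exceeded every wild type sample of its age. The second Gclm probe set was higher but not called, at 1.36-fold in tumours and 1.27-fold in mutant lung. Its adjusted p was 0.0568 and 0.0970 over all probe sets of 1 symbol. Over all those probe sets the chosen one was not called at 7 months either (adjusted p = 0.0572).

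Gss, glutathione synthetase, changed by about the same factor at both ages. It read 225, 287 and 241 in wild type lung and 431, 345 and 383 in tumours (1.51-fold, adjusted p = 0.0293), and 252, 228 and 243 against 369.8, 406 and 358 at 7 months (0.61 ± 0.08, 1.53-fold, adjusted p = 0.00159). The second Gss probe set was not called in tumours (1.68-fold, adjusted p = 0.0689 over all probe sets of 1 symbol). It was called at 7 months (1.51-fold, adjusted p = 0.0166). Gsr, the reductase that restores oxidised glutathione, read 1262, 1084 and 1222 in wild type lung and 1992, 1528 and 1636 in tumours (1.43-fold, adjusted p = 0.0415). The second Gsr probe set was not called in tumours (1.36-fold, adjusted p = 0.0920 over all probe sets of 1 symbol). At 7 months wild type array 1, at 1101, lay above mutant arrays 1 and 2, at 1090.02 and 1087, and Gsr was not called (adjusted p = 0.188). The difference between the ages was not called for Gsr either (0.20 ± 0.19, adjusted p = 0.630).

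Slc7a11, the cystine importer that supplies cysteine and a well-known NRF2 target, was the exception in this group. It read 99.2, 148 and 137 in wild type lung against 99.1, 124 and 55.2 in tumours, and 72.9, 33.1 and 80.01 against 39.7, 32.97 and 56.8 at 7 months (adjusted p = 0.330 and 0.480). Both estimates lay below 0, and groups overlapped at both ages. The 95% interval of its log2 change ran from -1.10 to 0.21 in tumours and from -0.97 to 0.25 in mutant lung.

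Among enzymes that remove peroxides and superoxide, the changes were uneven. Gpx2, the glutathione peroxidase of gut and airway epithelium, had the largest change at both ages among the chosen probe sets of the members. It read 397, 657 and 463 in wild type lung and 2551, 1913 and 2331 in tumours (2.15 ± 0.20, 4.44-fold, adjusted p = 0.00543). At 7 months it read 499, 452 and 505 in wild type and 1296, 1570.5 and 1279.5 in mutant lung (1.47 ± 0.10, 2.78-fold, adjusted p = 0.000144). Wild type levels were alike at the ages, and mutant lungs lay between wild type lungs and tumours; the difference between the effects was 0.68 ± 0.23 and not called (adjusted p = 0.127); it was 0.88 and called without wild type array 2 of 12 months, and 0.79 and called without tumour 2.

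Gpx8, a peroxidase of the endoplasmic reticulum, read 769, 737 and 678 in wild type lung and 1079, 1305 and 1663 in tumours (1.81-fold, adjusted p = 0.0219). At 7 months its values were 792, 754 and 699 against 949.9, 1048 and 885 (1.28-fold, adjusted p = 0.0320). The tumours spread more than any other group for this gene. Its relative Gpx7 read 321 to 444 in wild type lung and 422 to 554 in tumours, and 341 to 388 against 389.8 to 431 at 7 months, apart at 7 months but not called (adjusted p = 0.172 and 0.183). Srxn1, sulfiredoxin, which repairs overoxidised peroxiredoxins, read 373, 394 and 374 in wild type lung and 524, 483 and 566 in tumours (1.36-fold, adjusted p = 0.0242). At 7 months wild type array 3, at 468, lay within the mutant values of 445, 468 and 499, and Srxn1 was not called (adjusted p = 0.185); without that array it was (1.37-fold, adjusted p = 0.0175).

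The abundant housekeeping members of this group were not called at either age. Gpx1, the main cytosolic glutathione peroxidase, lay between 5743 and 6468 in wild type lung and between 5773 and 6211 in tumours. Its log2 change had a 95% interval from -0.22 to 0.18 in tumours and from -0.13 to 0.13 in mutant lung. Gpx4, which reduces lipid peroxides, had log2 changes of -0.03 and 0.17, Cat, catalase, -0.17 and 0.07, and Sod1, the cytosolic superoxide dismutase, 0.03 and -0.06. Gpx3, the secreted peroxidase of plasma, read 5253, 5870.2 and 5326 in wild type and 4421, 5156 and 4832 in mutant lung at 7 months. The 3 mutant values lay below the 3 wild type values, at an adjusted p of 0.185. In tumours Gpx3 had a log2 change of -0.33 (adjusted p = 0.262), with wild type values spread from 3487 to 5446; the highest was the male array.

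**Figure D2:**
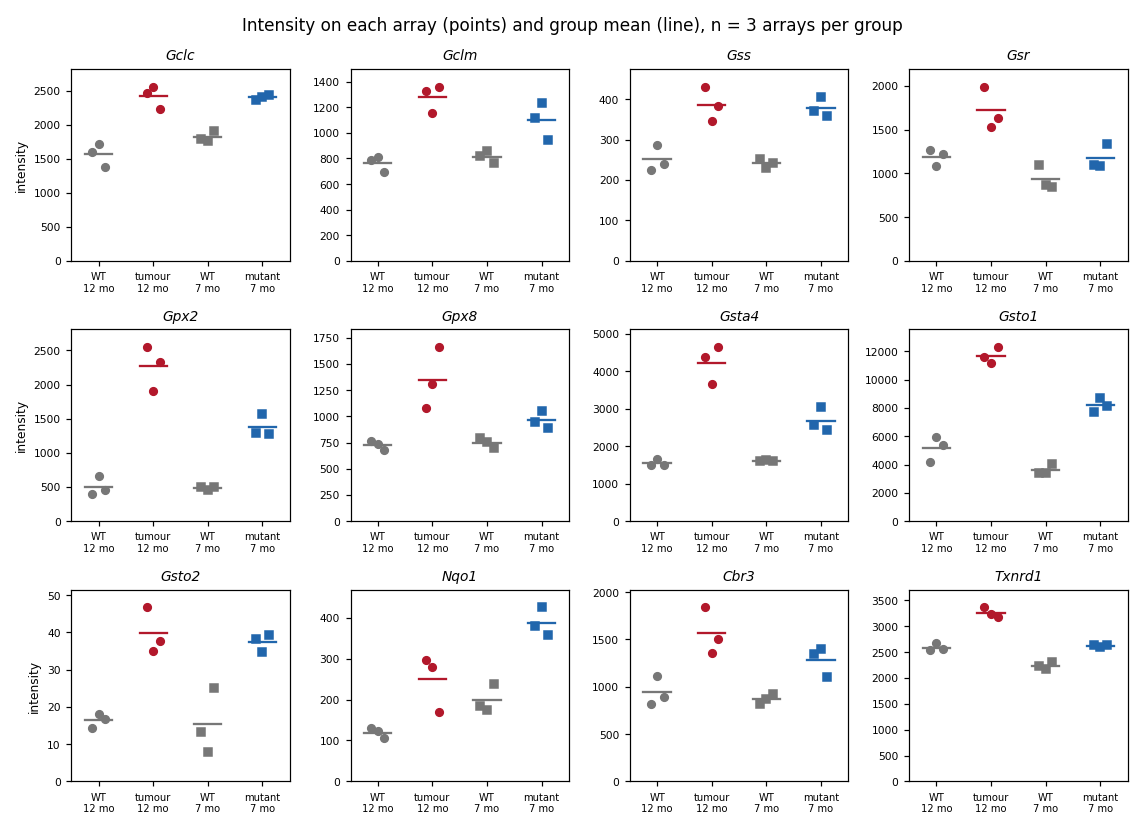
Intensity of 12 members on each array (points, 3 per group, in order of array number) with the group mean as a line, for wild type lung and tumours at 12 months and wild type and mutant lung at 7 months, each axis starting at 0. For Gclc, Gclm, Gss, Gpx2, Gpx8, Gsta4, Gsto1, Gsto2, Nqo1, Cbr3 and Txnrd1 all mutant points lie above all wild type points of their age, and for Gsr they do so at 12 months.

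Of the 17 soluble and kappa transferases, 6 were called higher in tumours and 4 in mutant lung. Gsta4, an alpha-class transferase that detoxifies 4-hydroxynonenal, a product of lipid peroxidation, read 1503, 1664 and 1493 in wild type lung and 4379, 3649 and 4651 in tumours (1.43 ± 0.12, 2.69-fold, adjusted p = 0.00414). At 7 months it read 1595, 1628 and 1601 in wild type and 2555, 3052 and 2438 in mutant lung (0.73 ± 0.09, 1.65-fold, adjusted p = 0.00191). Wild type values were tight at both ages. The lowest tumour lay above the highest mutant lung of 7 months. Its alpha-class relative Gsta3 read 2363, 2699 and 2087 in wild type lung against 2801, 2399 and 3172 in tumours, with a log2 change of -0.13 at 7 months (adjusted p = 0.348 and 0.583).

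Gsto1, an omega-class transferase with reductase activity, more than doubled at both ages. It read 4183, 5964 and 5402 in wild type lung and 11609, 11187 and 12309.95 in tumours (1.19 ± 0.14, 2.28-fold, adjusted p = 0.00802). At 7 months the values were 3415, 3371 and 4035 against 7734, 8728 and 8160.2 (1.19 ± 0.08, 2.27-fold, adjusted p = 0.000152). The second Gsto1 probe set gave larger changes, 3.53-fold in tumours and 3.46-fold in mutant lung (adjusted p = 0.00716 and 7.642e-05 over all probe sets of 1 symbol). Gsto2, its neighbour in the genome, is dim: it read 14.4, 18.1 and 16.6 against 46.7, 35.00 and 37.6 at 12 months (1.72-fold, adjusted p = 0.0102). The younger mice read 13.2, 7.94 and 25.1 against 38.3, 34.6 and 39.3 (1.74-fold, adjusted p = 0.0266). Its wild type values lie near the added 16, so these folds are understated.

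Gstp1, the pi-class transferase often studied in lung tumours, read 4926, 4604 and 4329 in wild type lung and 6249, 6128 and 5894 in tumours (1.32-fold, adjusted p = 0.0281). At 7 months it read 4869.99, 5345 and 5056 against 5444, 5862 and 5068, where the groups overlapped (adjusted p = 0.465). The theta-class genes behaved differently from one another. Gstt3 read 216, 256 and 228 in wild type and 366, 429 and 345 in mutant lung at 7 months (1.59-fold, adjusted p = 0.00282), but 330.1, 261 and 287 against 349, 448 and 250.9 in tumours (adjusted p = 0.551).

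Gstt1 read 1533, 1193 and 1235 in wild type lung and 747, 1391 and 508 in tumours (-0.69 ± 0.35, adjusted p = 0.244). Tumour 2 lay within the wild type range and the other 2 tumours below it; without tumour 2, Gstt1 was 2.10-fold lower (adjusted p = 0.0258). Gstk1, a transferase of mitochondria and peroxisomes, also set tumour 2 apart: it read 757, 1144 and 678 in tumours against 999 to 1066 in wild type lung, and was 1.44-fold lower without tumour 2 (adjusted p = 0.0204). Gstt2 read 595, 651 and 277 in tumours against 498 to 707, so that tumour 3 alone lay outside the wild type range (adjusted p = 0.597). At 7 months Gstt1, Gstt2 and Gstk1 had log2 changes of 0.17, 0.36 and -0.15, none called. Gstz1, which acts in tyrosine breakdown, had log2 changes of -0.0002 in tumours and 0.36 in mutant lung (adjusted p = 0.189).

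The 7 mu-class genes lie side by side in the genome, in the order Gstm5, Gstm7, Gstm6, Gstm3, Gstm2, Gstm1, Gstm4, and are close in sequence, so probe sets may read more than 1 of them. Gstm5 and Gstm7, the neighbours at one end, were called in tumours. Gstm7 read 111, 99.1 and 117 in wild type lung and 212, 184 and 227 in tumours (0.84 ± 0.11, 1.78-fold, adjusted p = 0.00922). At 7 months it read 119, 128 and 122 against 139, 156 and 146, without overlap but not called (1.17-fold, adjusted p = 0.0721). Its second probe set was not called in tumours (1.15-fold, adjusted p = 0.475). Gstm5 read 314, 334 and 307 in wild type lung and 415, 434 and 473 in tumours (1.36-fold, adjusted p = 0.0220), and 294, 302 and 318 against 332, 379.6 and 315 at 7 months (adjusted p = 0.278).

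The other mu-class genes were not called at either age. Gstm2 came closest, at 3133, 3003 and 2705 against 3609, 3422 and 3703 in tumours (1.21-fold, adjusted p = 0.0874). Gstm1 had a 95% interval of its log2 change from -0.17 to 0.18 in tumours and from -0.15 to 0.22 in mutant lung. Gstm4 read 265, 255 and 271 in wild type lung and 238, 237 and 237 in tumours, lower in every tumour by a small amount (-0.14 on the log2 scale, adjusted p = 0.234).

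Within this cluster the wild type lungs themselves differed between the 2 sets of arrays. On its chosen probe set Gstm3 read 1271, 1087 and 1222 at 12 months and 45.3, 66.6 and 59.1 at 7 months, 20.9-fold apart. Tumours (1241, 1195 and 1424) and mutant lungs (77.3, 63.3 and 54.9) followed the wild type of their own set. Gstm6, its neighbour, went the other way, at 6.26, 1 and 7.17 at 12 months and 58.03, 66.6 and 54.5 at 7 months; the tumours read 1.22, 1.1 and 7.26 and the mutant lungs 59.8, 75.4 and 56.4. The second Gstm7 probe set also stepped up, from 43.2, 35.1 and 47.1 to 176, 237 and 124 in wild type lung, while the chosen Gstm7 probe set did not. The step of the chosen Gstm3 probe set is larger than any change with genotype in the list. The other Gstm3 probe set did not show it. In wild type lung that probe set read 8.77, 7.77 and 6.95 at 12 months and 4.23, 9.76 and 17.9 at 7 months, near or below the added 16. The Gstm6 values of 12 months lie below the added 16, so no fold is given for it. Age, set and the mixed background of the mice cannot be told apart here, and no test was made. Of the measured members, 42 had wild type means within 2-fold of each other between the sets. The other 3 were Gstm3 and Slc7a11, higher at 12 months like 9.04% of all genes, and Gstm6, higher at 7 months like 6.33%.

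**Figure D3:**
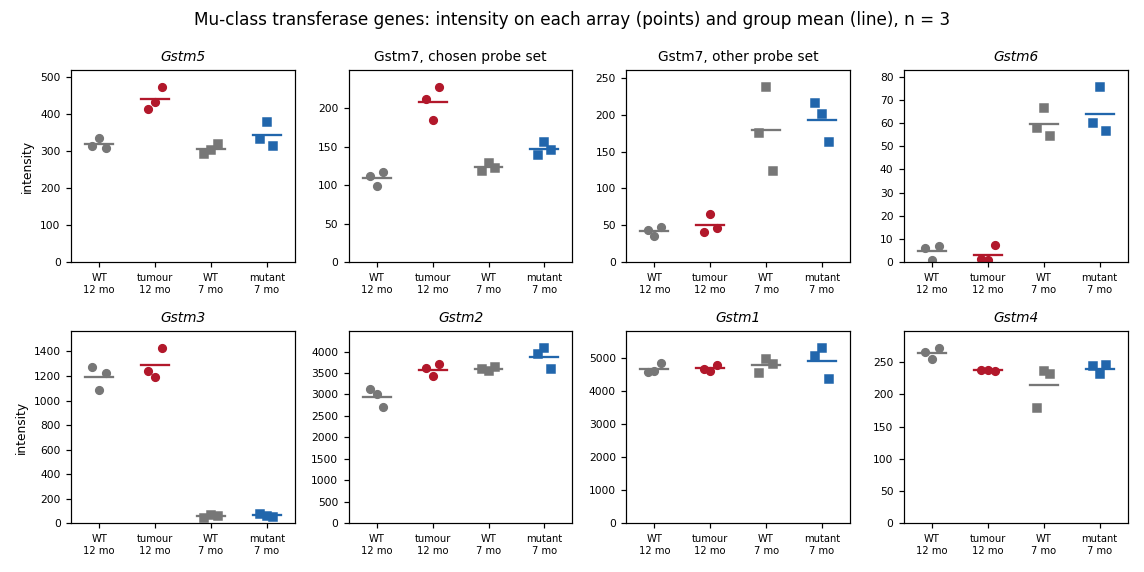
Intensity of the mu-class transferase genes on each array (points) with group means (lines), in genome order, with both Gstm7 probe sets, for the 2 groups of each age. Gstm5 and the chosen Gstm7 probe set are higher in tumours. The chosen Gstm3 probe set (1087 to 1271 against 45.3 to 66.6 in wild type lung) and Gstm6 (1 to 7.17 against 54.5 to 66.6) step between the ages in wild type and mutant samples alike.

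Of the microsomal transferases, membrane proteins with transferase and peroxidase activity, Mgst2 was called at 7 months. It read 397, 506 and 438 in wild type and 659, 709 and 658 in mutant lung (0.58 ± 0.09 on the log2 scale, 1.499-fold, adjusted p = 0.00490). In tumours it read 1142, 748 and 1169 against 553, 539 and 776, where wild type array 3 lay above tumour 2 (0.69 ± 0.22, 1.61-fold, adjusted p = 0.0904). The difference between the ages was not called for Mgst2 (0.105 ± 0.24, adjusted p = 0.866). Mgst3 lay higher in every tumour (1292, 1344 and 1086 against 912, 991 and 1024, adjusted p = 0.0903), and Mgst1 had log2 changes of 0.02 and 0.17 (adjusted p = 0.872 and 0.159).

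Among the other NRF2 targets, Nqo1, Txnrd1 and Cbr3 were called at both ages. Nqo1, the quinone reductase most often read as a marker of NRF2 activity, was at 129.8, 122 and 106 in wild type lung and 297, 279 and 171 in tumours (0.94 ± 0.21, 1.91-fold, adjusted p = 0.0340). At 7 months it read 184, 175 and 237 in wild type and 379.8, 425 and 358 in mutant lung (0.92 ± 0.14, 1.89-fold, adjusted p = 0.00374). The relative change was alike at the ages while the levels were not: all 3 mutant lungs at 7 months lay above all 3 tumours, and the 7-month wild type lungs above the 12-month ones.

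Cbr3, a carbonyl reductase, read 823, 1112 and 892 in wild type lung and 1840.5, 1354 and 1503 in tumours (1.65-fold, adjusted p = 0.0332), and 824, 869 and 925 against 1347, 1403 and 1104 at 7 months (1.46-fold, adjusted p = 0.0123). Txnrd1, cytosolic thioredoxin reductase, changed less but with little spread. It read 2541, 2671 and 2552 against 3366, 3231 and 3174 in tumours (1.26-fold, adjusted p = 0.0341) and 2229, 2169 and 2308 against 2635, 2597 and 2636 at 7 months (1.17-fold, adjusted p = 0.0438). Its other 2 probe sets, both dim, gave log2 changes of 0.0006 and -0.15 in tumours, neither called.

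Hmox1, heme oxygenase, a target shared with the repressor BACH1, was called at neither age. It read 371, 327 and 467 in wild type lung and 311, 365 and 280.02 in tumours (-0.26 ± 0.16, adjusted p = 0.319), and 284, 265 and 276 in wild type against 349, 338 and 514 in mutant lung (1.41-fold, adjusted p = 0.0777). All 3 mutant lungs at 7 months exceeded the wild type lungs, with mutant array 3 far above the other 2. The difference between the ages was -0.76 ± 0.22 and not called (adjusted p = 0.0857); without tumour 2 it was (-0.85, adjusted p = 0.0367). Ephx1, microsomal epoxide hydrolase, and Ugdh, which makes UDP-glucuronate, had log2 changes of 0.16 and 0.08 in tumours and 0.27 and 0.02 in mutant lung, none called.

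The RNA of NRF2 and of its inhibitor was not called at either age. Nfe2l2 read 3551, 3578 and 3519.6 in wild type lung and 3629, 4294 and 3397 in tumours, and 3819.6, 3376 and 3633 against 3888, 3696 and 4269.9 at 7 months. The 95% interval of its log2 change ran from -0.17 to 0.34 in tumours and from -0.05 to 0.31 in mutant lung. Keap1 read 838, 887 and 786 against 937, 909 and 831 in tumours, and 888, 1046 and 1011 against 1039.8, 966 and 847 at 7 months, with intervals from -0.12 to 0.31 and from -0.27 to 0.17. Groups overlapped for both genes at both ages. Neither sign is firm: with median centring both tumour estimates fell to -0.02 for Nfe2l2 and -0.008 for Keap1.

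Of the 3 pentose phosphate enzymes measured, Pgd alone was called, and at 7 months only; no difference between the ages was called for any of them. Pgd, which makes NADPH from 6-phosphogluconate, read 1610.2, 1708 and 1947 in wild type and 2347, 2279 and 2432 in mutant lung (0.42 ± 0.08, 1.34-fold, adjusted p = 0.0137). In tumours it read 2809.9, 2501 and 2340.2 against 2237, 2368 and 2695, with the groups overlapping (adjusted p = 0.735). Of its 4 probe sets, all lay higher at 7 months, with log2 changes from 0.39 to 0.45. For Pgd the difference between the ages was -0.36 ± 0.13 (adjusted p = 0.164).

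Taldo1, transaldolase, read 1532, 1416 and 1548 against 1732, 1757 and 1875 at 7 months (1.19-fold, adjusted p = 0.0547). Tkt, transketolase, read 3562, 3646 and 3785 against 4248, 4373 and 4034 (1.15-fold, adjusted p = 0.0867). For Pgd, Tkt and Taldo1 every mutant lung at 7 months lay above every wild type lung, although Pgd alone was called. In tumours Taldo1 had a log2 change of 0.19 and Tkt of 0.06 (adjusted p = 0.239 and 0.728).

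**Figure D4:**
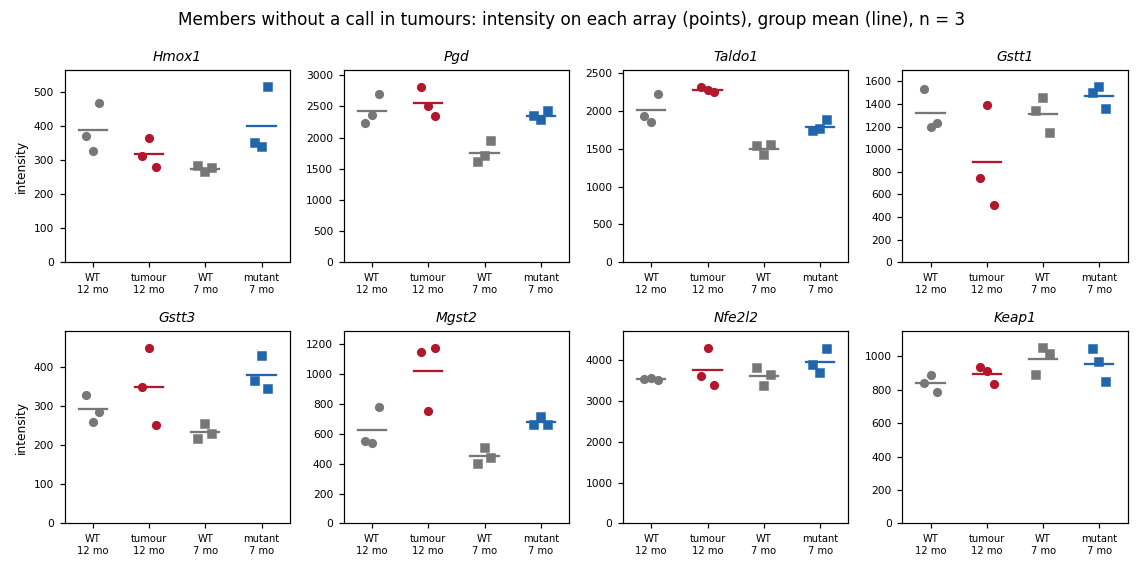
Intensity on each array (points) and group mean (line) of 8 members that were not called in tumours, for the 2 groups of each age, each axis starting at 0. Pgd, Taldo1, Gstt3, Mgst2 and Hmox1 show all 3 mutant lungs above all wild type lungs at 7 months, Gstt1 shows tumour 2 (1391) apart from the other tumours (747 and 508), and Nfe2l2 and Keap1 overlap between groups.

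The effect in tumours was then compared with that in mutant lung at 7 months, each against its own wild type, over all 15 arrays. Age, tumour against whole lung and the set of arrays differ together in this contrast. The difference is signed, tumour effect minus 7-month effect. It was called above 0 for 2 of the 45 members and below 0 for 0, against 1.75% and 1.41% of all genes. At an unadjusted p under 0.05 (limma), it was above 0 for 6 members and below 0 for 4, which were Gstm4, Gstt1, Hmox1 and Pgd. The shares above are for adjusted p, and the share of all genes at the unadjusted threshold was not computed. The 2 called members were Gsta4 (difference 0.70 ± 0.15, adjusted p = 0.0241) and Gstm7 (0.61 ± 0.12, adjusted p = 0.0173). Gsta4 was not called without wild type array 1 or 3 of 12 months (adjusted p = 0.0527 and 0.0638), tumour 3 (0.0579), wild type array 1 or 3 of 7 months (0.0512 and 0.0544) or mutant array 1 or 3 (0.0650 and 0.0544). Gstm7 was not called without mutant array 1 (adjusted p = 0.0517), nor as the mean of its probe sets (0.34, adjusted p = 0.332). Without tumour 2 the difference was also called above 0 for Gpx2 and below 0 for Cat, Gstt1 and Hmox1. It was called above 0 for Gpx2 without wild type array 2 of 12 months too, and for Gpx8 without tumour 1. For Gsto1 (0.0011 ± 0.16), Gss (-0.02 ± 0.14), Gsto2 (-0.02 ± 0.22) and Nqo1 (0.02 ± 0.25) the difference lay near 0 with wide errors.

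A list of 71 further genes of the same pathways, none of them members, had 64 measured. In tumours 13 of them were called higher and 3 lower, and in mutant lung 13 higher and 1 lower. That is 20.3% and 4.69% in tumours, where 9.23% and 6.02% of all genes were called, and 20.3% and 1.56% in mutant lung, where 6.42% and 1.39% were. The shares lower are near those of all genes. The median log2 changes of the 64 were 0.03 and 0.12. Abcc4, an exporter of conjugates and nucleotides, read 1759 ± 353 (SD, n = 3) in tumours against 543 ± 26.8 (3.14-fold, adjusted p = 0.00481) and 824 ± 42.6 in mutant lung against 392 ± 29.9 (2.06-fold, adjusted p = 0.000152). Akr1b8, an aldo-keto reductase, was 1.85-fold and 1.999-fold higher (adjusted p = 0.00664 and 0.000156), and Aldh3a1, an aldehyde dehydrogenase, 3.74-fold and 2.56-fold (adjusted p = 0.00920 and 0.000365). Both were called at both ages, as was Abcc4.

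The genes of that list named as higher are those with the smallest adjusted p at each age, and not all that were called. Akr7a5, for example, was called at both ages (1.33-fold at each, adjusted p = 0.0273 in tumours and 0.0340 in mutant lung). Among those with the smallest adjusted p in tumours, Adh7 and Abcc1 were called at both ages and Nfe2l3 in tumours. Adh7, an alcohol dehydrogenase of airway and upper gut epithelium, read 1083 ± 601 against 116 ± 24.9 (7.68-fold, adjusted p = 0.00892) and was 1.67-fold higher at 7 months (adjusted p = 0.0456). Nfe2l3, a relative of NRF2, read 257 ± 59.2 against 56.6 ± 17.97 in tumours (3.76-fold, adjusted p = 0.00795; at 7 months 1.63-fold, adjusted p = 0.0745). Abcc1, the classic exporter of glutathione conjugates, read 1450.2 ± 305 against 651 ± 20.6 in tumours (2.17-fold, adjusted p = 0.0112) and was 1.23-fold higher at 7 months (adjusted p = 0.0474). The 3 genes called lower, named after their values were seen, were Sod3, extracellular superoxide dismutase (1.74-fold), Blvra, biliverdin reductase (1.51-fold), and Sqstm1, a KEAP1-binding autophagy receptor (1.29-fold, adjusted p = 0.0498). At 7 months Ggt6, a glutathione-cleaving transferase (1.64-fold, adjusted p = 0.00120), Idh1, a source of cytosolic NADPH (1.55-fold, adjusted p = 0.00695), and Me1, malic enzyme, another such source (1.57-fold, adjusted p = 0.00981), were higher. Maff, a partner of NRF2 on DNA, was the 1 gene called lower and was also named after its value was seen (1.46-fold, adjusted p = 0.0337).

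Markers of several cell types moved with the same groups. Of all genes, 9.23% were called higher and 6.02% lower in tumours, and 6.42% and 1.39% in mutant lung at 7 months. Ciliated cell markers were called higher in 15 of 15 cases in tumours, with summed intensities of 24382 to 34591 against 12948 to 15969, and in 13 of 15 in mutant lung, at 16406 to 18934 against 11206 to 11857. Club cell markers were called higher in 4 of 9 cases in tumours (sums of 61454 to 62530 against 45382 to 54205) and in 7 of 9 in mutant lung (62644 to 66262 against 44618 to 49587). Mucous cell markers were higher in 9 and 4 of 11 cases (sums of 18892 to 25983 against 7190 to 10630 in tumours, and 9268 to 12469 against 1523 to 4343), and basal cell markers in 8 and 4 of 10 cases (6446 to 11611 against 1208 to 1753, and 2218 to 3075 against 1148 to 1295).

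Endothelial markers were called lower in 6 of 13 cases in tumours (sums of 12302 to 21210 against 29777 to 32006) and in 4 of 13 in mutant lung (29620 to 37041 against 42160 to 42420). Macrophage markers were lower in 5 of 10 cases in tumours (sums of 16534 to 26354 against 36574 to 43680), and 0 of 10 were called at 7 months, where limma also gave 0 at an unadjusted p under 0.05. Cardiac muscle markers were higher in 10 of 10 cases in tumours (33625 to 38474 against 13208 to 19167) and in 1 of 10 in mutant lung (12478 to 20078 against 9495 to 20822). Alveolar type 1 markers were called lower in 2 of 10 cases at each age (8 and 4 at an unadjusted p under 0.05), with sums of 20039 to 34612 against 36055 to 39931 in tumours and 40940 to 45851 against 48363 to 50272 in mutant lung. Alveolar type 2 markers were called by limma in 0 of 9 cases in tumours (1 at an unadjusted p under 0.05), where sums ran from 36805 to 66925 against 62813 to 65254, and were higher in 2 of 9 in mutant lung (61553 to 65283 against 57194 to 60650). Of 9 fibroblast markers 2 were higher and 3 lower in tumours, and of 9 lymphoid markers 1 was lower; at 7 months limma called 0 of each (4 and 1 at an unadjusted p under 0.05). Of 4 adipose markers 0 were called at either age (1 at each at an unadjusted p under 0.05). Red blood cell markers were called by limma in 0 of 5 cases at either age (2 in tumours and 0 at 7 months at an unadjusted p under 0.05). Their sums were 772 to 892 in tumours and 579 to 1083 in wild type lung. At 7 months they spread more widely, at 642 to 2829 in mutant and 497 to 4297 in wild type lung. Of these markers, Hba-a1 had means below the added 16 in all 4 groups. The shares of all genes given above belong beside these counts too. The single calls, 1 of 10 cardiac markers at 7 months and 1 of 9 lymphoid markers in tumours, are not far above them. In samples of whole tissue, more or fewer cells of a type and more RNA per cell cannot be told apart. The part of cell makeup in the changes of the glutathione and NRF2 genes was not tested.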

How the data were processed

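Total RNA was labelled by the Affymetrix 3' IVT protocol, per the labels' protocols, which reads mostly the 3' end of transcripts. The authors deposited 1 intensity per probe set, on a linear scale; background correction, summarization and scaling are not given in the sources used here. Of 45101 probe sets, 35890 were in the annotation, 34945 of them non-control with 1 symbol; these gave 18193 genes. Intensities were compared as log2(intensity + 16) with limma 3.58.1 in R 4.3.3 (lmFit, eBayes, two-sided, Benjamini-Hochberg over all genes); every adjusted p is from limma. The 12-month fit held 6 arrays and the 7-month fit 9. A further 7-month group of 3 arrays is not reported here but entered the 7-month spread and the probe set means. The fits were tested on simulated data in which 200 of the 18193 genes were changed and the others were not. Of 1.5-fold changes put in, 35.8% were called in the 12-month fit, 58.2% in the 7-month fit and 23.9% in the difference between the effects. Of 2-fold changes, 62.7%, 79.1% and 64.2% were called. The cutoff behind an adjusted p depends on how many genes change, and more were called in the real data. These rates therefore belong to the simulated setting and do not measure recovery in these data. A member that was not called may still have changed. The members and lists were chosen with earlier results of these data known. Members named with all values were Nfe2l2, Keap1, Nqo1, Gpx2, Gclc, Hmox1 and those with the smallest adjusted p in each group of roles; others were named to account for every member. Cell type markers and other pathway genes were fixed lists. Counts at an unadjusted p have no share over all genes to set beside them. Alternatives covered pseudocount, scaling, dim genes, choice of probe sets, variance model, array weights, arrays fitted, the replicate number as a block and single arrays left out. The number of arrays limits the precision.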

Additional observations from a re-analysis of the deposited data

Results flagged for a closer look

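For 6 genes the effect in tumours at 12 months differed from that in mutant lung at 7 months by the contrast over all 15 arrays (limma, adjusted p under 0.05 over all genes). The log2 differences were 0.70 for Gsta4 and 0.61 for Gstm7 among the members, and 0.82 for Abcc1 (adjusted p = 0.0245), 2.21 for Adh7 (adjusted p = 0.0164), 1.28 for Chac1 (adjusted p = 0.0464) and -0.69 for Ggt6 (adjusted p = 0.0139) among the other pathway genes. Neither Gsta4 nor Gstm7 was called without mutant array 1 of 7 months, and Gstm7 was not called as the mean of its probe sets. For the other pathway genes no result without single arrays is given. Chac1, which breaks down glutathione, read 331 ± 14.8 against 223 ± 14.7 at 12 months and 126 ± 24.9 against 231 ± 87.9 at 7 months (SD, n = 3). Ggt6 differed between the wild type lungs themselves, at 224 ± 7.83 at 12 months and 44.9 ± 3.66 at 7 months. The 3 tumours of Adh7 spread widely (1083 ± 601).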

How the results depend on the processing

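The count of members higher in tumours ranged from 6 to 16 without single arrays and was 9 against the male wild type array alone; that of members lower ranged from 0 to 2, and was 1 against that array. For mutant lung at 7 months, the higher count was 10 to 13 without single arrays and 8 in a fit of only the 2 groups, and the lower count was 1 with median centring. Members with a larger effect in tumours numbered 0 to 3 and with a smaller effect 0 to 3 without single arrays, and 1 had a larger effect with probe sets averaged. The remaining alternatives kept these counts within 1.5 times. With the replicate block, paired by number, 12 members were higher at 7 months (14 without it), without Gsto2 and Txnrd1, and 0 were lower. Same-numbered wild type and mutant arrays deviated with correlations of -0.128, 0.025 and -0.085, and differently numbered ones with -0.036 to 0.139. Whether the numbers mark pairs is not stated, and correlations over all genes cannot decide it, since a pairing may move few genes. Of 44 estimates of single members recomputed under every setting, signs turned for these, none of them called: Nfe2l2 in tumours with median centring (-0.017), averaged probe sets (-0.019) or single arrays left out (-0.015 without tumour 2, up to 0.153); Keap1 in tumours with median centring (-0.008), and at 7 months with array weights (0.005) or single arrays left out (0 without wild type 2 and 0.033 without mutant 3, down to -0.116). The difference between ages turned for Nqo1 with 64 added (-0.039) and without single arrays (-0.121 to 0.251), and for Nfe2l2 without tumour 3 (0.023) or mutant 3 (0.009), over a range down to -0.145. The cause was not tested, except that leaving out arrays also leaves fewer samples. Without single arrays, calls over all genes also fell in most fits of either age, by the counts given above. Dim genes limit Gsto2 and Gstm6, near or below the added 16.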
